A study of Oryctolagus cuniculus with 17 samples.

Results

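Lung capillary endothelial genes were followed in preterm rabbit pups reared in hyperoxia or normoxia. The set consists of 9 genes selected on results of these same samples, with the comparisons of hyperoxia and normoxia known: CD300LG, VIPR1, CALCRL, RAMP2, GPIHBP1, PLVAP, APLNR, APLN and CA4. For each, the table entry with that human gene name and the highest total count was taken. GPIHBP1 has no entry and was dropped, so 8 genes out of 13827 entries were analysed, and all 8 passed the filter on low counts that left 13142 entries for testing. The gas exchange capillaries of the lung hold 2 kinds of endothelial cell. General capillary cells renew the bed, and here PLVAP and APLNR stand for them. Aerocytes are thin, wide cells specialised for gas exchange, and here APLN and CA4 stand for them. CD300LG, VIPR1, CALCRL and RAMP2 are used as capillary genes with no subtype.

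The samples were homogenates of the right lung of New Zealand White pups, taken by C-section at day 28 of a gestation of 31 days and tube-fed a milk replacer. HT3, HT5 and HT7 pups breathed 95% O2 until day 3, 5 or 7 after birth, and NT3, NT5 and NT7 pups breathed 21% O2 for as long. There were 3 samples per group and 2 in HT5. All pups were preterm, so no group shows a term lung, and the labels number the replicates without saying whether each is a separate pup, so p-values measure only the spread between these samples. Because whole lung was sequenced, fewer endothelial cells and less RNA per cell cannot be told apart in any value below.

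Sample totals ran from 13123731 to 18111086 counts when loci with several genes were counted once. Of 18 pan-endothelial genes (genes shared by all endothelial cells), 13 were measured. The sum of their levels was 3268 to 4015 CPM in normoxia samples and 1404 to 3589 CPM in hyperoxia samples, so endothelial RNA was present in every sample. A library of HT3 (replicate 2) and a library of HT5 (replicate 1) stood apart in skeletal muscle genes, whose sum was 299.8 and 279 CPM there against 2.60 to 37.7 CPM elsewhere. Without HT5 replicate 1 the day 5 log2 fold change of hyperoxia against normoxia was -4.06 for CD300LG, -3.61 for APLNR, -1.54 for PLVAP and 1.25 for APLN, each farther from 0 than with it.

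Levels are in CPM (counts scaled to the library size), which do not allow for transcript length and are compared between samples, never between genes. Differences are log2 fold changes (log2FC) of hyperoxia against normoxia on the same day, each with its standard error (SE) from the edgeR fit of all 17 samples. Since the genes were chosen from these comparisons, their hyperoxia values are given as a description, with no p-value.

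CD300LG is a glycoprotein of the endothelial surface. Its level was 98.4, 71.5 and 85.6 CPM in NT3 and 88.3, 139.5 and 81.9 CPM in HT3. It was 41.5, 70.3 and 72.3 CPM in NT5 and 7.29 and 3.68 CPM in HT5. On day 7 it was 72.6, 119 and 104 CPM in NT7 and 1.21, 4.05 and 2.25 CPM in HT7. The groups overlapped on day 3, and every hyperoxia sample lay below every normoxia sample on days 5 and 7. The log2FC was 0.28 (SE 0.32) on day 3, -3.50 (SE 0.44) on day 5 and -5.30 (SE 0.41) on day 7, where 2.54% of the normoxia level was left. The positive day 3 value rested on HT3 replicate 2, without which it was -0.00060.

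VIPR1 encodes a receptor for vasoactive intestinal peptide (VIP), a dilator of lung vessels. Its level varied widely among normoxia samples, with 44.5, 40.0 and 86.4 CPM in NT3, 25.8, 73.2 and 85.4 CPM in NT5, and 58.1, 223 and 143 CPM in NT7. It was 19.0, 59.1 and 30.4 CPM in HT3, 3.64 and 2.27 CPM in HT5, and 2.31, 13.002 and 0.666 CPM in HT7, the last being 13 counts. The groups overlapped on day 3 and were apart on days 5 and 7. The log2FC was -0.65 (SE 0.71), -4.39 (SE 1.03) and -4.75 (SE 0.85) on days 3, 5 and 7. On day 3 it ranged from -1.20 without HT3 replicate 2 to -0.22 without NT3 replicate 3. On day 7 it was -6.58 without HT7 replicate 2, the highest HT7 sample, and then lower than the -5.80 of CD300LG, while with all samples CD300LG was the lower of the pair.

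CALCRL and RAMP2 form a receptor together: CALCRL is the membrane-spanning receptor and RAMP2 the accessory protein that makes it respond to adrenomedullin, a peptide that stabilises vessels. CALCRL was at 1035, 1176 and 1356 CPM in NT3 and 867, 1016 and 739.7 CPM in HT3. It was at 787, 1252 and 1236 CPM in NT5 and 276 and 222 CPM in HT5, and at 1267, 1381 and 1302 CPM in NT7 and 111, 267 and 164 CPM in HT7. HT3 samples were all below NT3 samples, by little, and the gap was wide on days 5 and 7. The log2FC of CALCRL was -0.44 (SE 0.25), -2.13 (SE 0.31) and -2.87 (SE 0.27).

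RAMP2 was at 529, 464 and 571 CPM in NT3 and 325, 418 and 342 CPM in HT3. It was at 319.7, 405 and 455 CPM in NT5 and 149.9 and 132 CPM in HT5, and at 495, 482 and 485 CPM in NT7 and 87.8, 109.6 and 85.6 CPM in HT7. All hyperoxia samples were below all normoxia samples on each of the 3 days. The log2FC was -0.53 (SE 0.14), -1.48 (SE 0.17) and -2.37 (SE 0.15), with the smallest standard errors of the set. The log2 CPM of CALCRL minus that of RAMP2 was 1.30 to 1.63 in NT5 and 0.75 and 0.88 in HT5. It was 1.36 to 1.52 in NT7 and 0.33 to 1.28 in HT7. Every HT5 and HT7 sample was thus below the normoxia samples of the same day in this difference. On day 3 the groups overlapped, with 0.97 to 1.34 in NT3 and 1.11 to 1.41 in HT3. The highest HT7 value lay within the NT3 range.

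PLVAP encodes the protein of the diaphragms that span fenestrae and caveolae. It was at 32.0, 27.2 and 33.9 CPM in NT3 and 33.5, 21.2 and 42.0 CPM in HT3, which overlapped. It was at 26.4, 33.0 and 27.4 CPM in NT5 and 14.8 and 9.96 CPM in HT5, and at 38.5, 23.9 and 32.5 CPM in NT7 and 15.0, 13.4 and 13.2 CPM in HT7, with no overlap. The log2FC was 0.06 (SE 0.23), -1.23 (SE 0.27) and -1.19 (SE 0.23). It was the least lowered of the 7 genes that were lower on day 5, and did not go lower from day 5 to day 7. The day 3 value changed sign without HT3 replicate 3, to -0.18, and was 0.28 without HT3 replicate 2.

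APLNR, the apelin receptor, marks general capillary cells. It was at 160.0, 115 and 142 CPM in NT3 and 70.7, 48.3 and 98.7 CPM in HT3. It was at 124, 170.0 and 120.3 CPM in NT5 and 24.9 and 11.3 CPM in HT5, and at 138, 137 and 133 CPM in NT7 and 7.67, 14.3 and 8.14 CPM in HT7. Hyperoxia samples were below normoxia samples on all 3 days, and the distance widened each time. The log2FC was -0.94 (SE 0.29), -2.94 (SE 0.37) and -3.76 (SE 0.33).

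APLN encodes apelin, the ligand of APLNR, made in the lung by aerocytes. It was the exception of the set. Its level was 47.1, 82.0 and 91.4 CPM in NT3 and 31.3, 20.9 and 49.7 CPM in HT3, which overlapped. It was 87.7, 76.1 and 85.3 CPM in NT5 but 127 and 197 CPM in HT5, both above every NT5 sample. On day 7 it was 14.6, 32.6 and 83.6 CPM in NT7 and 43.9, 37.1 and 28.2 CPM in HT7, which overlapped again. The log2FC was -1.11 (SE 0.47), 0.97 (SE 0.50) and -0.26 (SE 0.47). Within hyperoxia, APLN was higher in HT5 than in HT3 by a log2FC of 2.25 (SE 0.51), and HT7 against HT5 gave -2.15 (SE 0.51), so the high level was seen on day 5 alone. The day 5 log2FC was 0.59 without HT5 replicate 2, and the day 7 value ranged from -0.68 without NT7 replicate 1 to 0.62 without NT7 replicate 3.

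CA4, a carbonic anhydrase anchored on the luminal face of capillary cells, is the other aerocyte gene. It was at 121, 101 and 134 CPM in NT3 and 77.5, 55.1 and 53.0 CPM in HT3. It was at 83.7, 82.4 and 110.2 CPM in NT5 and 27.6 and 4.65 CPM in HT5, and at 42.2, 81.4 and 115 CPM in NT7 and 29.7, 6.23 and 7.84 CPM in HT7. The groups did not overlap on any day, although on day 7 the highest HT7 sample was not far from the lowest NT7 sample. The log2FC was -0.94 (SE 0.56), -2.53 (SE 0.70) and -2.45 (SE 0.60), and on day 5 it was -4.31 without HT5 replicate 1, the library with the high muscle sum, and -1.75 without HT5 replicate 2. On day 7 it was -3.50 without HT7 replicate 1.

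**Figure D1:**
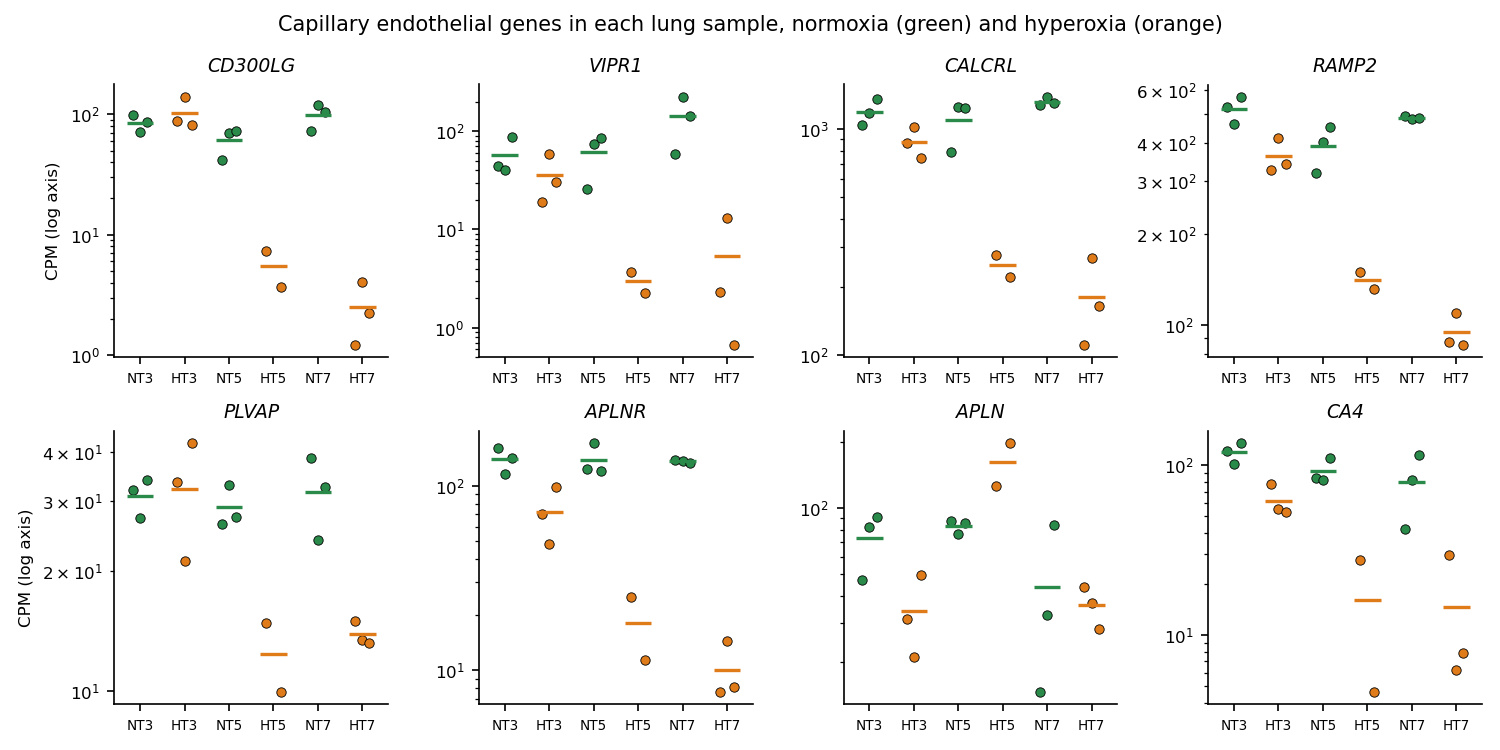
CPM (log axis) of the 8 genes in each of the 17 samples, with 1 point per sample, a line at the group mean, normoxia in green and hyperoxia in orange. In HT5 and HT7 all genes but APLN lie below the normoxia samples of the same day, and APLN is high in both HT5 samples (127 and 197 CPM).

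Counted over the set, 4 of 8 genes had all HT3 samples below all NT3 samples, against 13.9% of all entries tested. The count was 7 of 8 on day 5, against 29.2% of all entries, and 7 of 8 on day 7, against 27.2%. By the study's thresholds of an adjusted p under 0.01 and a log2FC beyond 2 in either direction, 4 of 8 (CD300LG, VIPR1, CALCRL and APLNR) were lower on day 5, against 0.761% of all entries, and 6 of 8 (those and RAMP2 and CA4) on day 7, against 2.84%. Nothing is read from these shares, since the set was chosen for them. The day 5 count was 5 with DESeq2, 2 without HT5 replicate 2, and 0 when only the HT5 and NT5 samples were fitted, which leaves few samples to estimate the spread. The median log2FC of the 8 genes was -0.59, -2.33 and -2.66 on days 3, 5 and 7, while that of all entries tested was 0.00079, -0.019 and -0.0078.

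Within hyperoxia the main drop came between days 3 and 5. HT5 against HT3 gave a log2FC of -4.25 (SE 0.45) for CD300LG, -3.63 (SE 1.01) for VIPR1, -2.01 (SE 0.36) for APLNR and -1.81 (SE 0.30) for CALCRL. HT7 against HT5 gave -1.12 (SE 0.45) for CD300LG, -0.84 (SE 0.35) for APLNR and -0.58 (SE 0.16) for RAMP2, and only for RAMP2 and APLN did all HT7 samples lie below both HT5 samples. VIPR1 gave 0.84 (SE 0.99), less than its error, and CA4 -0.13 (SE 0.66).

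Levels over time in normoxia were not used to choose the genes and could be tested. With edgeR's quasi-likelihood test, 0 of 8 genes had an adjusted p under 0.05 for NT5 against NT3, NT7 against NT3 or NT7 against NT5, and 0% of all entries did in each. At an unadjusted p under 0.05 the counts were 1, 0 and 1 of 8, the gene being RAMP2 both times, against 5.64%, 6.27% and 4.45% of all entries. DESeq2 called 0 of 8 in each comparison, and 81, 39 and 1 of all entries. RAMP2 had a log2FC of -0.41 (SE 0.14, adjusted p = 0.61) for NT5 against NT3 and of 0.31 (SE 0.14, adjusted p = 0.999) for NT7 against NT5. The largest estimate was that of VIPR1 for NT7 against NT3, 1.31 (SE 0.72, adjusted p = 0.851), which was within the spread between samples. APLN gave -0.75 (SE 0.46, adjusted p = 0.892) and CA4 -0.58 (SE 0.56, adjusted p = 0.947) in the same comparison, with NT7 replicate 1 lowest for both. APLNR lay at 115 to 170.0 CPM over the 9 normoxia samples, and its log2FC over days was -0.01 to -0.03 (SE 0.29).

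The 2 general capillary genes were contrasted with the 2 aerocyte genes. The mean log2FC of PLVAP and APLNR was -0.44, -2.08 and -2.48 on days 3, 5 and 7, and that of APLN and CA4 was -1.03, -0.78 and -1.36. General minus aerocyte was therefore 0.58 on day 3, -1.30 on day 5 and -1.12 on day 7. The day 7 value ranged from -1.74 without NT7 replicate 3 to -0.47 without HT7 replicate 1, and was -0.67 without NT7 replicate 1. In single samples, the mean log2 CPM of the general genes minus that of the aerocyte genes was apart on day 5 alone. It was -0.75 to -0.08 in NT5 and -1.62 and -1.52 in HT5. The groups overlapped on day 3, with -0.70 to -0.075 in NT3 and -0.085 to 0.33 in HT3. They also overlapped on day 7, with -0.57 to 1.55 in NT7 and -1.74 to -0.14 in HT7. Which pair of genes was used decided the direction. The log2 CPM of APLNR minus that of APLN was 0.50 to 1.16 in NT5 and -4.11 and -2.34 in HT5, and 0.67 to 3.23 in NT7 and -2.50 to -1.37 in HT7. For PLVAP minus CA4 the values rose instead, from -2.0015 to -1.31 in NT5 to -0.90 and 1.08 in HT5, and from -1.98 to -1.89 in NT3 to -1.37 to -0.34 in HT3. On day 7 PLVAP minus CA4 was -1.82 to -0.13 in NT7 and -0.98 to 1.09 in HT7, which overlapped. APLNR minus APLN was thus lower in every HT5 and HT7 sample than in the normoxia samples of the same day. In HT3 this difference (0.99 to 1.20) lay within that of NT3 (0.49 to 1.76). On day 7 APLN itself overlapped between the groups (log2FC -0.26) and APLNR did not (log2FC -3.76).

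**Figure D2:**
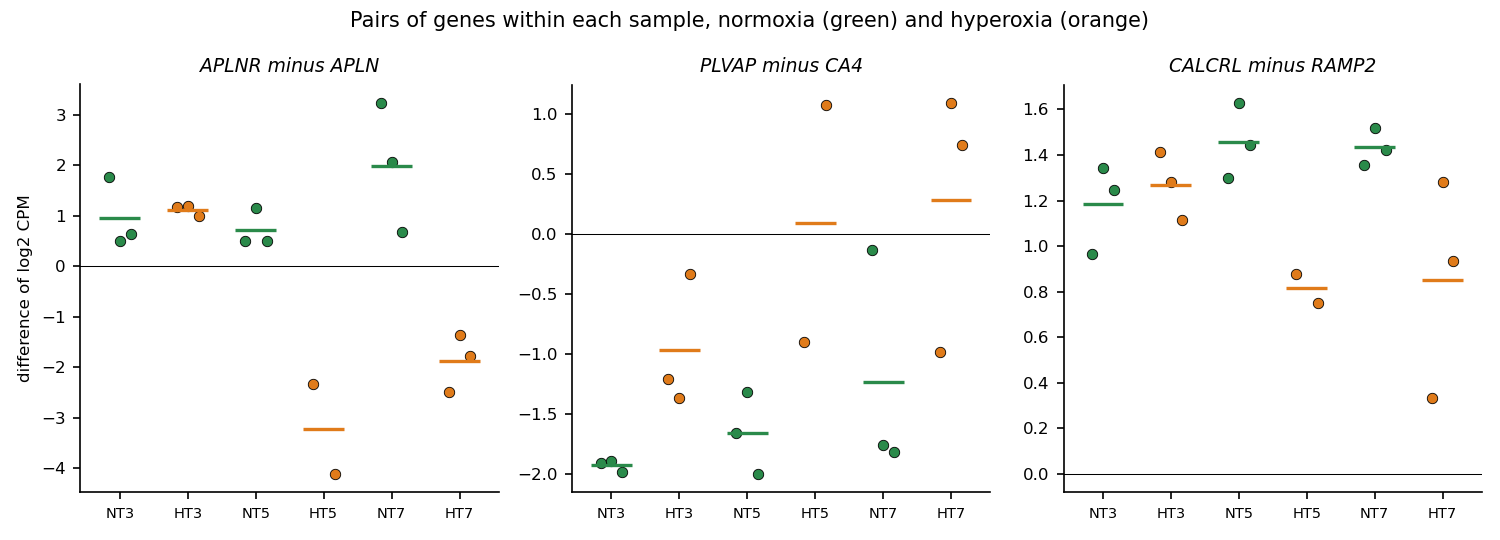
Differences of log2 CPM between 2 genes within each sample, with 1 point per sample and a line at the group mean. APLNR minus APLN is between -4.11 and -1.37 in HT5 and HT7 and between 0.49 and 3.23 in all other samples. PLVAP minus CA4 is higher in hyperoxia on days 3 and 5. CALCRL minus RAMP2 is lower in HT5 and HT7 than in normoxia of the same day. The differences are compared between samples, and 0 does not mean equal levels of the 2 genes.

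Genes shared by all endothelial cells were lower too. The sum of the 13 pan-endothelial genes was 3190 to 3589 CPM in HT3, 1974 to 2013 CPM in HT5 and 1404 to 2017 CPM in HT7, against 3524 to 4015, 3268 to 3689 and 3547 to 3827 CPM in the normoxia groups. In edgeR's quasi-likelihood test with Benjamini-Hochberg adjustment, 11 of the 13 fell on day 5 (background 15.4% of all entries) and 11 on day 7 (background 23.7%). CDH5 (VE-cadherin, the junction protein of endothelial cells) had a log2FC of -1.41 on day 5 (adjusted p = 6.23e-05) and -1.96 on day 7 (adjusted p = 3.92e-07). PECAM1 (CD31) did not pass, with -0.15 on day 5 (adjusted p = 0.672) and -0.05 on day 7 (adjusted p = 0.87), its levels being 598, 585 and 528 CPM in NT7 and 779, 334 and 539.6 CPM in HT7. On day 3, TIE1, a receptor tyrosine kinase of endothelial cells, was the single one of the 13 to pass (-0.87, adjusted p = 0.00316), and it was named after its value was seen.

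Each sample's log2 CPM was therefore also taken relative to the mean of the 13 pan-endothelial genes, a scale added after the data were seen, whose own hyperoxia minus normoxia difference was -0.27, -1.01 and -1.52 on days 3, 5 and 7. On this scale CD300LG gave -2.48 on day 5 and -3.83 on day 7, VIPR1 -3.17 and -3.87, APLNR -1.9998 and -2.28, and CALCRL -1.10 and -1.43, with no overlap between groups. RAMP2 gave -0.45 and -0.85, also without overlap. PLVAP gave 0.28, -0.23 and 0.37 on the 3 days and overlapped on each, so that its day 7 difference changed sign. APLN was above all normoxia samples on day 5 (1.95) and also on day 7 (1.59), and CA4 was below them on days 3 and 5 (-0.68 and -1.98) but overlapped on day 7 (-1.16). On day 3 APLNR was also below them (-0.71), and CD300LG lay above the normoxia samples by 0.52.

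**Figure D3:**
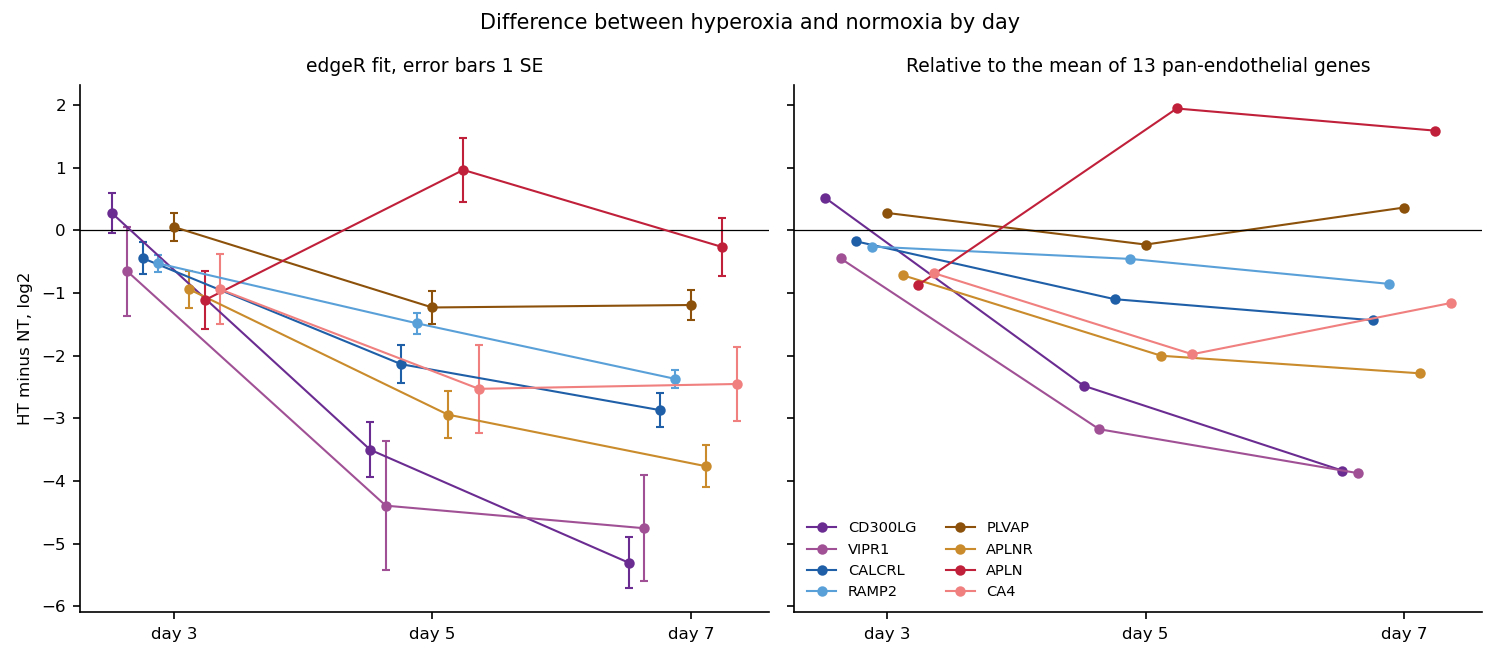
Hyperoxia minus normoxia (log2) of the 8 genes on days 3, 5 and 7, on the left from the edgeR fit with bars of 1 SE and on the right relative to the mean of 13 pan-endothelial genes in the same samples. CD300LG and VIPR1 go lowest on both scales, APLN is above 0 on day 5, and PLVAP stays between -0.23 and 0.37 on the right.

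Summed levels of some marker lists of other cell types differed in the same lungs. The sum of 8 macrophage genes was 1637 to 1706 CPM in HT5 and 1742 to 2351 CPM in HT7, against 839 to 1544 CPM in NT5 and 1105 to 1323 CPM in NT7. The genes of that list did not move as 1, since 3 of 8 had a log2FC above 0 and 5 below it on both days, with medians of -0.27 and -0.21. By edgeR, 2 rose and 0 fell on day 5, and 2 rose and 1 fell on day 7. The sum of the 4 alveolar type 1 genes measured was 1694 to 2797 CPM in HT5 and 1605 to 2125 CPM in HT7, against 3993 to 4786 CPM in NT5 and 4485 to 5687 CPM in NT7. Of these 4, 3 were lower and 1 higher on day 5 (median -0.64), 2 were lower and 2 higher on day 7 (median -0.94), and 2 passed the test on each day, both lower. The background was 15.9% of all entries higher and 15.4% lower on day 5, and 23.7% each way on day 7. The sums of most other lists lay apart on some day too, and a sum follows its most abundant genes, so that members often went both ways. The neutrophil sum was 1138 to 1675 CPM in HT3 and 296 to 795 CPM in NT3, where 5 of 6 genes had a log2FC above 0, and it was also higher in HT5. In HT7 it was 1047 to 3458 CPM against 1063 to 1152 CPM in NT7, which overlapped. HT7 replicate 1 had the highest neutrophil sum and also the highest macrophage sum of HT7. On day 7 the sums in HT7 and NT7 were 104 to 148 and 212 to 256 CPM for ciliated cell genes, although their median log2FC was -0.13, with 2 of 5 called lower and 1 higher (2.07). They were 47.3 to 67.1 and 118 to 202 CPM for erythroid genes (2 of 3 called lower), and 1.64 to 3.17 and 8.27 to 13.8 CPM for lymphocyte genes (5 of 6 called lower). The ciliated cell sum was lower in HT3 and HT5 as well, and the erythroid sum in HT5. The arterial endothelial sum was lower in HT5 and HT7, with 3 and 5 of 6 genes called lower. The venous endothelial sum was lower in HT5 and HT7, but of its 5 genes 3 were called lower and 2 higher on day 5, and 3 lower and 1 higher on day 7, the highest log2FC being 3.30 and 3.07. The lymphatic endothelial sum was higher in HT3, where 4 of 6 genes were lower, the median log2FC was -0.23 and 1 was called higher, and lower in HT7, with 2 called lower. The alveolar type 2 sum was higher in HT3, where the median log2FC of its 5 genes was 0.33. The pericyte sum was lower in HT7, with 3 of 6 genes called lower and 1 higher (1.29). The smooth muscle and fibroblast sums were lower in HT3, where their median log2FC was -0.18 and -0.28. Both were also lower in HT5, with 2 of 4 smooth muscle genes called lower and 1 higher, and 3 of 6 fibroblast genes called lower. Of the lists described here, no gene was at 0 in all samples of a group. The part of these shifts in the values of the capillary genes was not tested.

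The deviations of samples from their group means show which of the 8 genes varied together, as a description over 17 samples that share libraries and depth. Of 28 pairs, the highest Pearson correlation was that of CD300LG with CALCRL, 0.87, followed by VIPR1 with RAMP2 (0.77) and CALCRL with RAMP2 (0.75). CD300LG, VIPR1, CALCRL and RAMP2 had correlations of 0.69 to 0.87 among themselves. PLVAP went with APLNR (0.67). APLN and CA4, the aerocyte pair, had 0.25, and APLN had between -0.20 and 0.20 with the other 6.

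Besides the pan-endothelial and cell type lists, genes tested outside the set came from 9 lists of partners and of other capillary genes. These lists name 73 genes, of which 52 are in the table and 50 were tested by edgeR's quasi-likelihood test with adjustment over all entries. On day 3, 1 rose (background 0.517% of all entries) and 0 fell (background 0.517%), while at an unadjusted p under 0.05 the counts were 4 and 10, and DESeq2 called 1 and 5. On day 5, 2 rose (background 15.9%) and 20 fell (background 15.4%). On day 7, 7 rose (background 23.7%) and 28 fell (background 23.7%). The same background shares apply to the counts of each single list below. The effect on day 7 was lower than that on day 3 for 18 of the 50 (background 11.0%) and higher for 1 (background 9.52%).

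ADM, the gene of adrenomedullin and so of the ligand of CALCRL with RAMP2, rose on all 3 days. It was at 13.4, 13.8 and 10.9 CPM in NT3 and 27.6, 45.0 and 27.5 CPM in HT3, at 11.7, 13.05 and 12.6 CPM in NT5 and 26.0 and 31.7 CPM in HT5, and at 14.1, 13.4 and 11.96 CPM in NT7 and 50.1, 41.7 and 45.9 CPM in HT7. The groups were apart on each day. The log2FC was 1.39 (SE 0.18, adjusted p = 0.00177), 1.21 (SE 0.20, adjusted p = 0.000645) and 1.81 (SE 0.18, adjusted p = 5.32e-06). RAMP1, which turns CALCRL into the receptor of calcitonin gene-related peptide, fell on day 5 (-1.30, SE 0.27, adjusted p = 0.00301) and day 7 (-1.99, SE 0.24, adjusted p = 2.08e-05) and gave -0.27 (adjusted p = 0.615) on day 3. Of the 4 genes of this list that were tested, 1 rose and 1 fell on day 5, and 2 rose and 1 fell on day 7. RAMP3, the third accessory protein, was not analysed here.

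The second apelin-receptor ligand, APELA, was not analysed here. VIP, the ligand of VIPR1, reached at most 9 counts in a sample and was not tested. Of the other receptors of its family 1 of 2 fell on days 5 and 7 (background 15.4% and 23.7% of all entries).

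GPIHBP1 carries lipoprotein lipase (LPL) across capillary cells. LPL itself was at 514, 395 and 261 CPM in NT7 and 1716, 499 and 847 CPM in HT7, a log2FC of 1.39 (SE 0.36, adjusted p = 0.00559) although the lowest HT7 sample lay below the highest NT7 sample. ANGPTL4, an inhibitor of LPL, gave 0.98 (adjusted p = 0.0793) on day 7. CD36, a fatty acid transporter of capillary cells and macrophages, fell on day 5 (-1.62, adjusted p = 0.00682) and day 7 (-2.01, adjusted p = 0.000263). Of 6 tested genes of the lipase list, 1 fell on day 5 (background 15.4% of all entries). On day 7, 2 rose and 1 fell (background 23.7% each way).

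All 5 measured genes of caveolae, the flask-shaped pits in which PLVAP sits, fell on day 5 and on day 7. CAV1 was at 1558, 1985 and 1979 CPM in NT7 and 260.3, 457 and 332 CPM in HT7 (log2FC -2.40, SE 0.23, adjusted p = 3.55e-06), and CAVIN2 at 281, 323 and 305 CPM in NT7 and 28.0, 71.8 and 35.9 CPM in HT7 (-2.75, SE 0.28, adjusted p = 5.71e-06). Both fell further than PLVAP did on day 7, whose log2FC was -1.19; that difference was not tested.

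**Figure D4:**
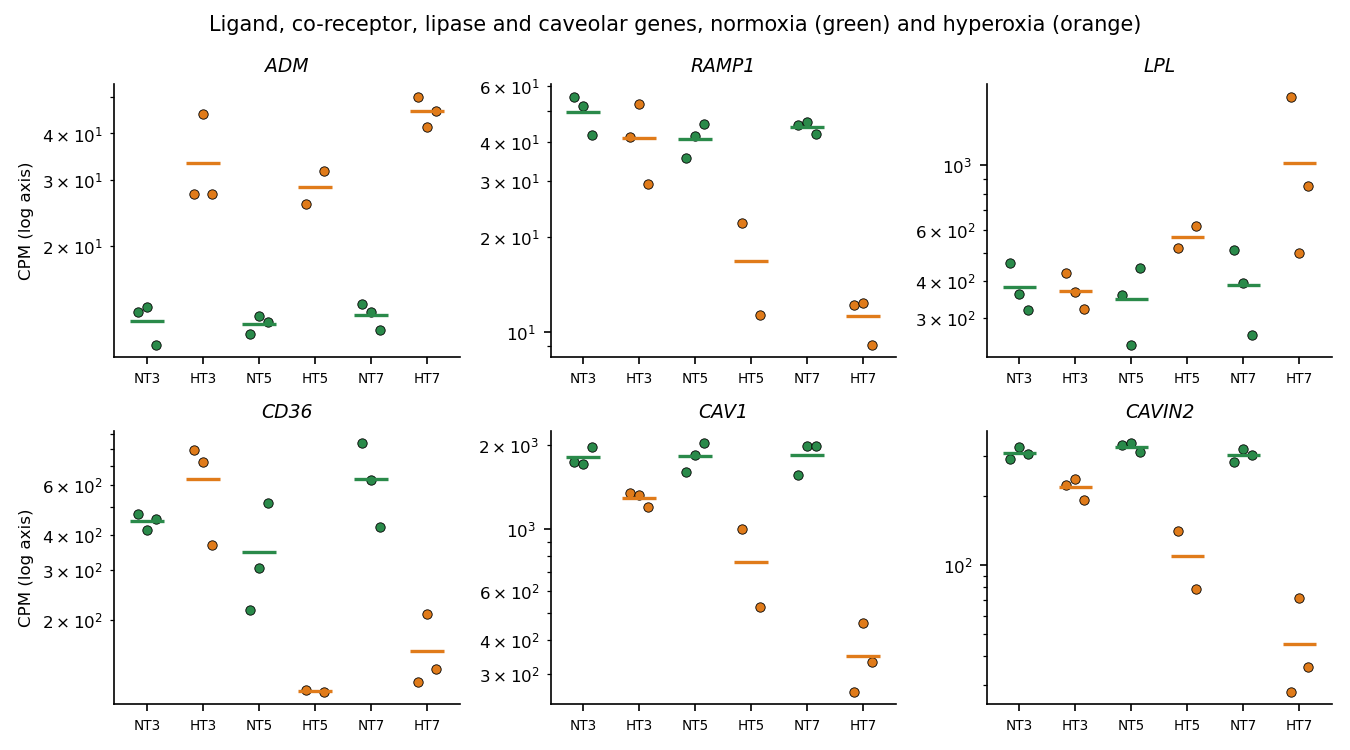
CPM (log axis) of ADM, RAMP1, LPL, CD36, CAV1 and CAVIN2 in each sample, with 1 point per sample and a line at the group mean. ADM is higher in hyperoxia on all 3 days, while RAMP1, CD36, CAV1 and CAVIN2 are lower in HT5 and HT7 and LPL spans 499 to 1716 CPM in HT7.

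Of 9 other carbonic anhydrases tested, 1 rose on day 5 (background 15.9% of all entries). On day 7, 2 rose and 3 fell (background 23.7% each way). CA12, found in epithelia, was at 2.19, 0.0675 and 0.249 CPM in NT7 and 24.2, 12.9 and 19.9 CPM in HT7 (log2FC 4.52, SE 0.99, adjusted p = 0.00181). CA14 had 0 counts in all HT7 samples and 6 to 30 counts in NT7 samples, and was at least 7.65-fold lower when 3 counts per library are taken as the floor (adjusted p = 0.00218). On day 7 the log2FC of CA4 was -2.45.

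Other general capillary genes fell on days 5 and 7, in 5 of 7 and 6 of 7 tested, and their median log2FC was -0.18, -2.37 and -2.73 on days 3, 5 and 7. CD93 (a membrane lectin-like protein) gave -3.16 on day 7 (adjusted p = 8.96e-07), SLC6A4 (the serotonin transporter) -3.14 (adjusted p = 3.91e-06), PTPRB (a phosphatase that acts on TIE2) -2.73 (adjusted p = 8.1e-06) and KIT (the stem cell factor receptor) -2.65 (adjusted p = 7.93e-05). BTNL9 fell on day 7 (adjusted p = 0.0117) with 0 to 1 counts in HT7 samples and 6 to 11 in NT7 samples, a ratio of the summed counts, scaled to library size, of 0.0631 (exact 95% interval 0.00727 to 0.251, which covers counting error only). On day 5 it did not pass (adjusted p = 0.303). NTRK2 (a neurotrophin receptor) fell on day 5 (-2.75, adjusted p = 0.0018) and gave -0.98 (adjusted p = 0.0695) on day 7.

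Other aerocyte genes fell in 7 of 9 on day 5 and 8 of 9 on day 7, with medians of -0.71, -1.70 and -2.60 on days 3, 5 and 7. PRX (a scaffold protein) gave -3.23 on day 7 (adjusted p = 2.62e-06), HPGD (which breaks down prostaglandins) -3.08 (adjusted p = 0.000113), SOSTDC1 (a secreted inhibitor of BMP and Wnt signalling) -2.82 (adjusted p = 1.16e-06) and CHST1 (a sulfotransferase) -2.70 (adjusted p = 1.67e-06). KDR (VEGF receptor 2) gave -2.60 (adjusted p = 5.71e-06), EDNRB (endothelin receptor B) -2.38 (adjusted p = 0.000131) and TBX2 (a transcription factor) -1.97 (adjusted p = 3.91e-06). FIBIN was the exception and rose on day 7 (1.48, SE 0.25, adjusted p = 0.000225), with 9.84, 10.2 and 8.04 CPM in NT7 and 28.3, 17.7 and 32.1 CPM in HT7. On day 3 all 9 had a log2FC below 0 and 3 of the 7 general capillary genes had one above 0, but none of the 16 passed the test on that day. The lists of both subtypes thus fell on days 5 and 7, and a difference between them was not tested.

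**Figure D5:**
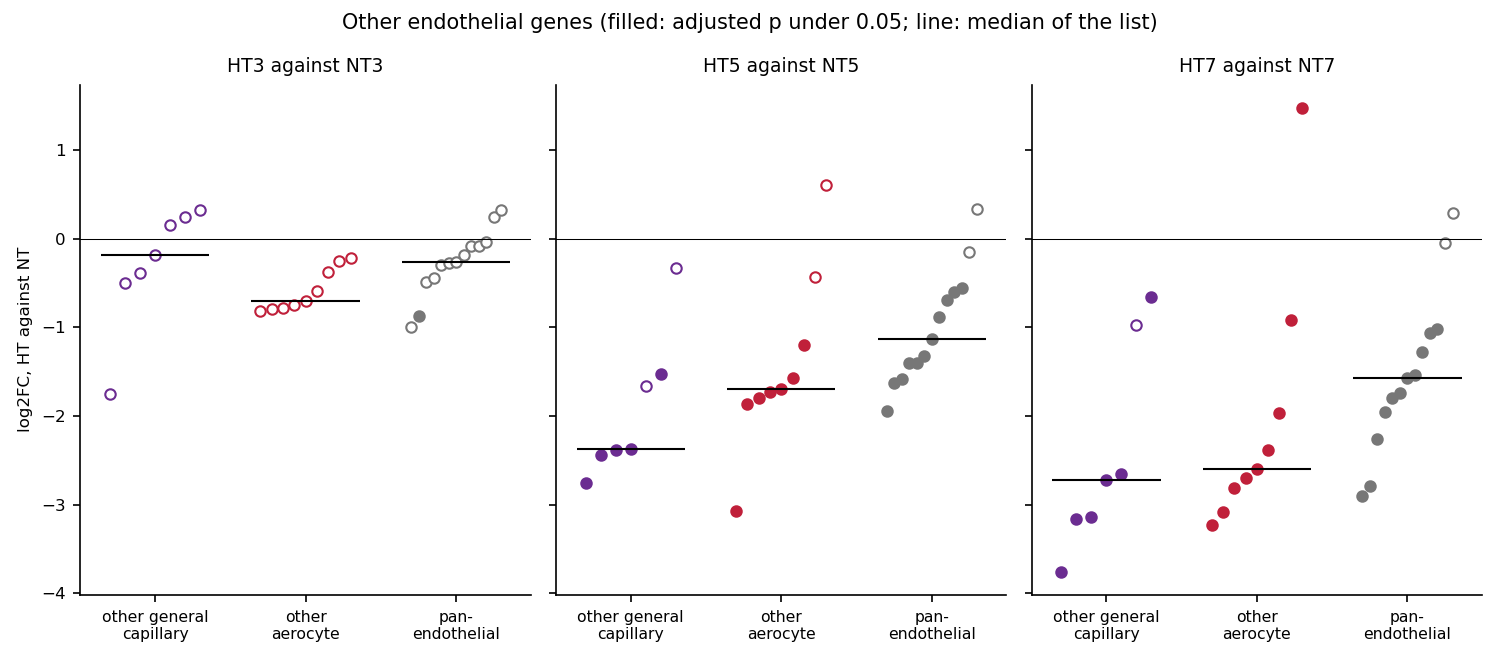
log2FC of hyperoxia against normoxia of the other general capillary (7), other aerocyte (9) and pan-endothelial (13) genes tested, 1 panel per day, filled where the adjusted p was under 0.05, with a line at the median of each list. On day 7 the medians are -2.73, -2.60 and -1.58, FIBIN is the filled point above 0, and the day 7 point of BTNL9 rests on 2 counts in HT7.

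By Pearson correlation of log2 CPM over the 17 samples, the 3 genes outside the set most like CD300LG were MFNG (0.989), NPR1 (0.988) and SLC6A4 (0.987), those most like APLNR were WSCD1 (0.992), MFAP4 (0.99) and HSPA12B (0.986), and those most like APLN were PLXNA3 (0.842), TMEM200A (0.807) and LRRC4C (0.79). These values describe likeness, and the gap between HT5 and HT7 and the other samples enters them. Among the 9 normoxia samples alone they were 0.853, 0.794 and 0.9 for the genes like CD300LG, 0.732, 0.386 and 0.862 for those like APLNR, and 0.903, 0.836 and 0.741 for those like APLN. TMEM200A was near the floor, with 2, 3 and 3 counts in HT3 and 11 and 28 in HT5, so its values rest on few counts. The patterns of CD300LG and of APLNR were each close to those of other genes lowered on days 5 and 7, and the highest value for APLN was 0.842.

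The positions of the genes in the rabbit build OryCun2.0, as the table lists them, are chr19:44263125-44276609 for CD300LG, chr9:1731488-1763191 for VIPR1, chr7:127710392-127749026 for CALCRL, chr19:43479090-43479497 for RAMP2, chr1:190346088-190347230 for APLNR, chrX:104073869-104080730 for APLN and chr19:26488629-26492286 for CA4. PLVAP lies on an unplaced scaffold. The span listed for RAMP2 is 408 bp, and none of the 8 shares its locus with another gene.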

How the data were processed

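Stranded libraries of poly(A) RNA were sequenced as paired-end reads. The table that the authors deposited holds raw counts for each locus, which they had not normalized. The submitters' processing notes name FastQC, STAR 2.7.10a and the build OryCun2.0, and the counting program is not given in the sources used here. A locus with several genes has an entry for each with the same counts. 44 of 13827 entries carry no gene name.

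Counts were fitted with edgeR 4.0.16 in R 4.3.3: filterByExpr by group (13142 entries kept), TMM factors (0.958 to 1.05), and a quasi-likelihood model of 6 group means over all 17 samples, with a prior count of 0.125 for log2FC and Benjamini-Hochberg adjustment over all entries tested. The study's thresholds were an adjusted p under 0.01 with a log2FC above 2 or below -2, and 0.05 was used otherwise. CPM used the TMM factors, and log2 CPM a prior count of 2. DESeq2 1.42.0 was an alternative. Figures were made with matplotlib 3.10.9. No 2 replicates agreed within sampling noise.

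The genes, lists and tests were chosen with earlier results of these data known. Of the partner lists, preselected genes and those past the study's thresholds on any day are named; of the other capillary lists, those with an adjusted p under 0.05 and a log2FC above 1 or below -1 on day 5 or 7; besides, PECAM1, CDH5 and the 3 genes most like each of CD300LG, APLNR and APLN. TIE1 was named outside this rule. Some genes of the partner lists are not reported here.

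Whether equal replicate numbers pair the samples was checked by correlating, across genes, how far each sample lay from its group mean. The correlation was 0.166, 0.131 and 0.199 on day 3, 0.264 and 0.141 on day 5, and 0.174, 0.109 and 0.0695 on day 7. Samples with unlike numbers were not compared, so these values have no reference, and they were of similar size on days 3 and 5. The check therefore cannot decide whether the numbers pair the samples, and no label says what a number stands for.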

Additional observations from a re-analysis of the deposited data

Results flagged for a closer look

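For 19 partner and other capillary genes the effect of hyperoxia differed between days 3 and 7 in the interaction term of the edgeR fit (adjusted p under 0.05 over all entries), given here as the day 7 log2FC minus the day 3 log2FC. Of the general capillary genes, the value was -3.29 for SLC6A4, -3.05 for PTPRB, -2.98 for CD93 and -2.89 for KIT. Of the aerocyte genes, it was -2.86 for PRX, -2.60 for SOSTDC1, -2.48 for HPGD, -1.91 for CHST1, -1.85 for KDR, -1.57 for EDNRB and -1.19 for TBX2, and 1.73 for FIBIN. Of the caveolar genes, it was -2.25 for CAVIN2, -1.91 for CAV1, -1.48 for CAV2 and -0.38 for PACSIN2. It was -1.72 for RAMP1, -2.51 for CD36 and -2.01 for CA8. The adjusted p-values of these 19 edgeR tests lie between 0.00023 (CD93) and 0.039 (EDNRB).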

How the results depend on the processing

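The results were recomputed with DESeq2, with RLE in place of TMM factors, with no filter on low counts, with a prior count of 2 (values and counts that use log2FC), with the samples of the groups compared alone, with the replicate number as a block, with 1 entry per locus and without each sample. The number of the 8 genes past the study's thresholds on day 5 was 4, 5 with DESeq2, 0 with the HT5 and NT5 samples alone, and 2 to 4 without 1 sample. The number of partner and other capillary genes called on day 3 was 1, and 6 both with DESeq2 and with the HT3 and NT3 samples alone. Without 1 sample, other counts ranged from 5 to 6 for the 8 genes on day 7, 15 to 26 and 30 to 35 for the partner and other capillary genes on days 5 and 7, and 16 to 21 for the difference between days. The replicate block ties samples of the same number across all groups and days, so a pairing within 1 day was not fitted. On days 3, 5 and 7 the block gave 0, 4 and 6 of the 8 genes. For partner and other capillary genes it gave 1, 22 and 38. It moved no count by over 1.5 times, and all 35 calls of day 7 were among the 38. The cause of these shifts was not tested. Relative to the pan-endothelial mean, PLVAP on day 7 was 0.37. As a difference of mean log2 CPM without that scaling it was -1.16, and in the edgeR fit -1.19. With vst values, MFNG and HSPA12B left the 3 most similar genes. HT5 has 2 samples, so each day 5 value rests on few libraries.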
